A study of Danio rerio with 15 samples.

Results

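The comparison described here set 3 samples of nkd1-/- zebrafish embryos against 3 samples of Tu embryos, all at 50% epiboly, the stage at which the sheet of embryonic cells has spread to the equator of the yolk and gastrulation begins. The 6 samples were chosen by their labels from a series of 15 samples in 5 groups of 3. The nkd1-/- line carried a lesion in nkd1 made with an sgRNA and Cas9 in the Tu strain, and Tu is therefore the strain of origin of the mutant. The 3 samples of TL, a second laboratory strain, were described to see where a strain without either engineered lesion lay for the genes that changed. All 15 samples entered the fit, so TL and the remaining groups also shaped the low-count filter, the scaling and the estimate of spread. The remaining groups were axin2-/-;nkd1-/- embryos, obtained by crossing the single mutants, and axin2-/- embryos, made with Cas9 in TL. Neither the nkd1-/- nor the Tu nor the TL samples carry any other allele or treatment in their labels, and the labels of the Tu and TL samples give no genotype. Each sample was RNA from a pool of 10 embryos. All replicates of a group were clutches of the same parents taken on separate days, so each p-value measures the spread between collections from one family per group. The loss of nkd1 and any other difference between the nkd1-/- family and the Tu family cannot be told apart in this design. The cells were not sorted, so fewer cells of a type and less RNA per cell cannot be told apart either.

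Canonical Wnt signalling works by stabilising beta-catenin. Without a Wnt ligand, a complex of Axin, APC, GSK3 and CK1 marks beta-catenin for destruction. A Wnt ligand bound to a Frizzled receptor and its Lrp5/6 co-receptor recruits Dishevelled, which blocks that complex, and beta-catenin then enters the nucleus and switches on target genes together with Tcf and Lef factors. Nkd1, or Naked cuticle homolog 1, binds Dishevelled and is a negative feedback regulator of the pathway, and Axin2 is a feedback member of the destruction complex. Transcription of both nkd1 and axin2 is itself induced by Wnt. In the zebrafish embryo, maternal Wnt signalling sets up the dorsal organizer before gastrulation, and zygotic Wnt signalling at the margin later patterns ventral and lateral mesoderm and the posterior body. The question put by the design was how Nkd1 regulates Wnt signalling and what happens to Wnt target genes without it.

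The 3 nkd1-/- libraries held 50744709, 52268581 and 68135442 counts assigned to genes, the 3 Tu libraries held 47428934, 52740700 and 50013802, and the 3 TL libraries held 53815577, 52610385 and 56597427. The table listed 32520 genes, and the test was run on the 21614 with enough counts to pass a low-count filter. Of the 10906 that were not tested, 4179 had no count in any nkd1-/- or Tu library. A gene was called changed at an adjusted p below 0.05 in edgeR's quasi-likelihood test, with Benjamini-Hochberg adjustment over all 21614 genes. Levels below are CPM after TMM scaling, that is, counts per library divided by its effective size, given for replicates 1, 2 and 3 in that order, and each difference is a log2 fold change of nkd1-/- over Tu with its standard error (SE). CPM is not corrected for gene length, so levels are compared between samples and not between genes. In all, 6324 genes were called, which is 29.3% of those tested, and any count of members below is to be read against that background. Of these, 3122 genes, or 14.4% of those tested, were higher and 3202 genes, or 14.8%, were lower in nkd1-/- embryos. Replicates of a group differed from each other by more than counting error, with a chi-square per degree of freedom between 12.3 and 67.2 for pairs within the nkd1-/-, Tu and TL groups.

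The targeted gene was higher, not lower, in the mutant. nkd1 (ENSDARG00000020053) was at 17.8, 26.01 and 21.3 CPM in nkd1-/- samples, against 11.002, 12.5 and 13.7 CPM in Tu samples, with means of 21.7 ± 4.13 and 12.4 ± 1.34 CPM (SD, n = 3 each). Every nkd1-/- sample was above every Tu sample, and the difference was 0.81 ± 0.20 (adjusted p = 0.00517). TL samples were at 14.2, 16.5 and 14.04 CPM, all below the lowest nkd1-/- sample and above the highest Tu sample. Total transcript counts per gene do not show whether the product of a Cas9 lesion is functional, and the type and position of the lesion were not given in the sources used here, so this value does not test the label. The axin2-/-;nkd1-/- libraries, the other group with an nkd1 lesion, were at 21.5, 22.1 and 26.6 CPM. The axin2-/- libraries, with no nkd1 lesion in their label, were at 18.7, 27.4 and 15.2 CPM. That range overlaps both the nkd1-/- and the TL range, and axin2-/- was not tested against any group here.

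The remaining Naked family members did not pass the test. nkd2 differed by 1.35 ± 0.68 (adjusted p = 0.152), and the 3 tested genes with the symbol nkd3 differed by 0.55 ± 0.30, 0.37 ± 0.27 and 0.44 ± 0.31. One of the 3 nkd3 genes, ENSDARG00000069984, was called, with a log2 fold change of 1.02, when Tu replicate 3 was left out. The remaining gene with that symbol did not pass the filter on low counts.

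Where genes known to be induced by Wnt signalling passed the test, nearly all were higher in the mutant. Of 32 tested genes on the list of Wnt targets, 13 were called higher, 1 was called lower and 18 were not called. The share called was 43.75%, against 29.3% of all tested genes. The median log2 fold change of the 32 was 0.33, against 0.0032 over all tested genes. The list was drawn up with earlier results of these data known and has no test of its own. Of the 14 called genes, 12 higher and 1 lower kept their call with the same sign in each of 6 fits that left out 1 nkd1-/- or Tu library, and irx7 did not. Without nkd1-/- replicate 1, 14 were called higher and 3 lower. Besides nkd1, the feedback gene axin2 was at 77.6, 99.98 and 81.8 CPM in nkd1-/- samples, against 56.7, 61.4 and 70.7 CPM in Tu samples. All nkd1-/- samples lay above all Tu samples, and the difference was 0.46 ± 0.12 (adjusted p = 0.00826). TL was at 68.4, 72.6 and 62.0 CPM, overlapping Tu only.

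The size of the rise differed between target genes. tnfrsf19, a receptor of the TNF receptor superfamily also known as Troy, was at 11.2, 8.94 and 12.1 CPM in nkd1-/- samples, against 1.19, 1.57 and 1.77 CPM in Tu samples. The groups were far apart, with a difference of 2.83 ± 0.22 (adjusted p = 7.75e-08), and TL lay between them at 2.84, 3.94 and 3.27 CPM. msgn1, a transcription factor of presomitic mesoderm, was at 38.6, 114 and 59.7 CPM in nkd1-/- samples, against 12.5, 18.3 and 25.4 CPM in Tu samples. Replicate 2 was the highest nkd1-/- sample and replicate 3 the highest Tu sample, and the groups did not overlap (1.92 ± 0.35, adjusted p = 0.000599). lef1, a nuclear partner of beta-catenin, was at 31.7, 65.0 and 39.4 CPM in nkd1-/- samples, against 11.6, 12.8 and 16.4 CPM in Tu samples. Its lowest nkd1-/- sample was well above the highest Tu sample (1.74 ± 0.24, adjusted p = 4.2e-05). tcf7, another nuclear partner of beta-catenin, was at 2.25, 3.37 and 3.86 CPM in nkd1-/- samples, against 0.985, 1.27 and 0.887 CPM in Tu samples (1.59 ± 0.29, adjusted p = 0.000613). For tcf7 the TL samples, at 2.69, 3.45 and 2.61 CPM, lay with nkd1-/-, whereas for msgn1 at 15.7, 24.9 and 16.5 CPM and lef1 at 14.5, 18.9 and 14.7 CPM they lay with Tu.

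Further targets, picked here after their values were seen, showed the same direction with smaller or less even changes. sp5l, a zinc finger factor downstream of Wnt, was at 182, 302 and 294 CPM in nkd1-/- samples, against 60.9, 81.8 and 132 CPM in Tu samples. Tu replicate 3 was the highest Tu sample and still below every nkd1-/- sample (1.50 ± 0.30, adjusted p = 0.00125). Its relative sp5 was at 54.0, 74.4 and 71.3 CPM in nkd1-/- samples, against 33.8, 38.3 and 33.7 CPM in Tu samples (0.92 ± 0.14, adjusted p = 0.000116). tbxta, a Brachyury gene needed for notochord and tail, was at 691, 1007 and 801 CPM in nkd1-/- samples, against 457, 522 and 620.3 CPM in Tu samples (0.64 ± 0.15, adjusted p = 0.00316). The lowest nkd1-/- sample was above the highest Tu sample for sp5 and for tbxta. The 1 target gene that fell was a gene with the symbol myc (ENSDARG00000007241), the proto-oncogene factor of cell growth, at 4.68, 3.92 and 4.22 CPM in nkd1-/- samples, against 12.6, 10.9 and 9.17 CPM in Tu samples. Its groups did not overlap either (-1.35 ± 0.23, adjusted p = 0.000357).

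Several established targets, named here after their values were seen, did not pass the test. vox, vent and ved, ventral repressors of organizer genes, differed by -0.01 ± 0.10, -0.26 ± 0.10 and -0.12 ± 0.12, with adjusted p values of 0.977, 0.0578 and 0.487. cdx4, a posterior homeobox gene, differed by 0.64 ± 0.30 (adjusted p = 0.126), and dkk1b, a secreted Wnt antagonist, by -0.01 ± 0.19 (adjusted p = 0.969). The list therefore held both called rises and genes that missed the adjusted threshold.

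**Figure D1:**
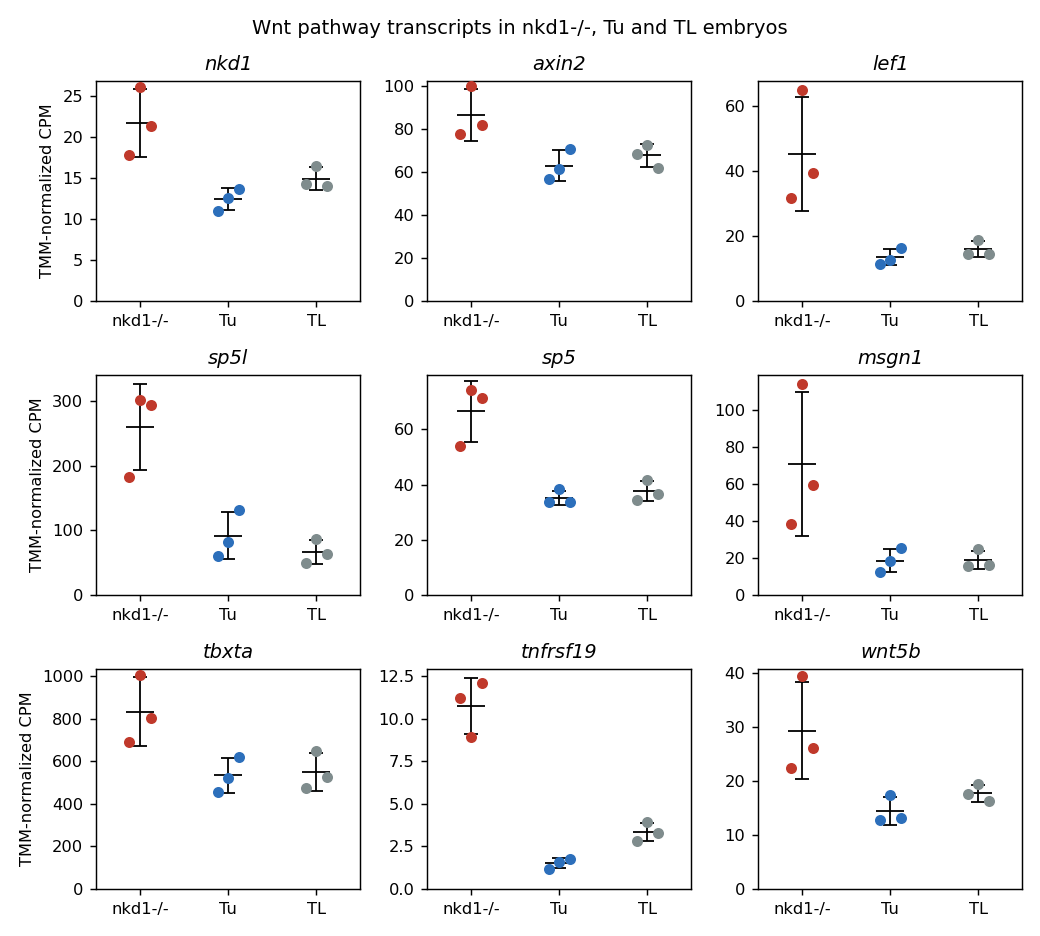
Level in CPM after TMM scaling of 9 genes of the Wnt pathway or its targets in each nkd1-/-, Tu and TL sample. Points are samples, bars are means and error bars are SD over 3 samples. All 9 genes shown were called higher in nkd1-/-, so the separation in the panels is not separate support. Of 32 tested Wnt targets, 18 were not called and 1 was called lower. In all 9 panels the 3 nkd1-/- points lie above the 3 Tu points, and for nkd1 and tnfrsf19 the TL points lie between them.

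Among the Wnt ligands, 1 of 8 tested genes was called, a share of 12.5%, below the background. wnt5b, a ligand that mainly drives beta-catenin-independent signalling in gastrulation movements, was at 22.4, 39.4 and 26.1 CPM in nkd1-/- samples, against 12.8, 17.4 and 13.1 CPM in Tu samples. The groups did not overlap (1.02 ± 0.18, adjusted p = 0.000531), and TL at 17.5, 19.4 and 16.3 CPM overlapped the top of Tu. wnt11f2, another ligand of gastrulation movements, differed by 0.05 ± 0.11 (adjusted p = 0.753). wnt8a, the main zygotic Wnt ligand of the margin, had a count of 0 in all 15 libraries under both of its gene IDs, so the deposited counts give no measure of it.

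Of 18 tested Wnt receptors, 5 were called higher and none lower, a share close to the background, with a median of 0.16 over the 18. The median was 0.0020 without nkd1-/- replicate 2, and 1 receptor was called lower with DESeq2, with only the groups compared, with thinned libraries and without nkd1-/- replicate 3. fzd5, a Frizzled receptor, was at 1.32, 4.07 and 2.04 CPM in nkd1-/- samples, against 0.821, 0.643 and 0.718 CPM in Tu samples. Its replicates were uneven, with nkd1-/- replicate 2 the highest, but the groups did not overlap (1.76 ± 0.43, adjusted p = 0.0056). fzd10 was at 10.8, 17.3 and 13.5 CPM in nkd1-/- samples, against 4.86, 5.48 and 6.74 CPM in Tu samples (1.28 ± 0.20, adjusted p = 0.000122). It was one of the genes for which TL, at 3.79, 3.77 and 3.53 CPM, lay below Tu and thus farther from the mutant. A gene with the symbol fzd8 (ENSDARG00000038569) was at 17.96, 30.2 and 27.8 CPM in nkd1-/- samples, against 9.44, 11.5 and 15.7 CPM in Tu samples (1.05 ± 0.20, adjusted p = 0.00106), with TL at 20.8, 27.2 and 23.5 CPM. ror2, a co-receptor for Wnt5 ligands, was at 89.9, 112 and 91.4 CPM in nkd1-/- samples, against 57.6, 51.6 and 41.3 CPM in Tu samples (0.96 ± 0.13, adjusted p = 2.58e-05). For ror2 every TL sample, at 122, 125 and 121 CPM, was above every nkd1-/- sample, so the mutant lay between the strains. The canonical co-receptors lrp5 (-0.16 ± 0.18) and lrp6 (0.28 ± 0.17) were not called.

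Of 10 tested secreted or membrane inhibitors of Wnt, 2 were called higher, a share of 20%, below the background. frzb, a secreted Frizzled-related antagonist, was at 11.7, 19.0 and 18.4 CPM in nkd1-/- samples, against 7.39, 8.64 and 10.1 CPM in Tu samples. The groups were separate by a narrow margin (0.91 ± 0.23, adjusted p = 0.00601). sfrp1 (ENSDARG00000035521), another member of that family, was at 44.4, 78.9 and 54.4 CPM in nkd1-/- samples, against 38.8, 43.8 and 37.4 CPM in Tu samples (0.57 ± 0.16, adjusted p = 0.0153). Its nkd1-/- replicate 1 lay close to the highest Tu sample, and the call was lost without nkd1-/- replicate 2 (0.31), without Tu replicate 1 (0.55) and without Tu replicate 3 (0.52).

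Among 21 tested cytoplasmic members of the pathway, 6 were called higher and 1 lower, including axin2. The share called was 33.3%, close to the 29.3% of all tested genes. The largest change of the list was in gsk3bb, a copy of the kinase GSK3 beta that marks beta-catenin for destruction. gsk3bb was at 2.32, 2.85 and 2.69 CPM in nkd1-/- samples, from 123, 138 and 185 counts, against 0.0411, 0.0378 and 0.0211 CPM in Tu samples, from 2, 2 and 1 counts. The transcript was thus close to absent from Tu and present in each mutant library (6.19 ± 0.40, adjusted p = 9.13e-09). TL was at 0.0351, 0.0379 and 0.0350 CPM, as low as Tu, and axin2-/- embryos were at 0.0577, 0.0207 and 0.0216 CPM. The axin2-/-;nkd1-/- embryos, which also carry an nkd1 lesion, were at 4.11, 3.002 and 3.91 CPM. The groups that were high share both that lesion and descent from the nkd1-/- line, and these cannot be told apart here. The other gene for this kinase, gsk3b (ENSDARG00000017803), was at 18.2, 24.2 and 23.7 CPM in nkd1-/- samples, against 10.4, 11.9 and 13.6 CPM in Tu samples (0.88 ± 0.17, adjusted p = 0.00111). The pair are related copies, and how reads shared between them were counted is not given in the sources used here.

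cby1, which encodes Chibby, a beta-catenin antagonist, was at 76.9, 74.9 and 67.5 CPM in nkd1-/- samples, against 34.3, 39.6 and 31.1 CPM in Tu samples. The replicates were tight and the groups far apart (1.06 ± 0.11, adjusted p = 1.9e-06), with TL between them at 56.6, 56.5 and 54.3 CPM. dact2, which encodes a Dishevelled-binding protein, was at 59.4, 69.8 and 74.3 CPM in nkd1-/- samples, against 31.8, 37.3 and 30.9 CPM in Tu samples (1.02 ± 0.16, adjusted p = 0.000128). Its relative dact1 was at 15.8, 23.1 and 17.9 CPM in nkd1-/- samples, against 8.27, 11.02 and 11.1 CPM in Tu samples (0.90 ± 0.17, adjusted p = 0.000786). Both dact genes were thus separate between the groups. The call on dvl2, a Dishevelled gene and the 1 member called lower (-0.29 ± 0.09, adjusted p = 0.0201), did not hold in every fit with a library left out. axin1 (0.17 ± 0.11), apc (-0.12 ± 0.13) and ctnnb1, which encodes beta-catenin (0.20 ± 0.10), were not called. Of 13 tested nuclear factors, lef1 and tcf7, described above, were called, and tcf7l1b (0.31 ± 0.14, adjusted p = 0.121) was not. The share of nuclear factors called, 15.4%, was below the background. Without nkd1-/- replicate 1, 4 nuclear factors were called higher.

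The planar cell polarity branch orients cells during convergence and extension, and Nkd proteins can also act through it. Of its 23 tested genes, 8 were called higher, 6 of them without overlap, and 1 lower. The share called was 39.1%, against 29.3% of all tested genes. The 8 include wnt5b and ror2, already counted above among the ligands and receptors. prickle1 (ENSDARG00000040649), which encodes a core polarity protein, was at 32.6, 54.5 and 47.5 CPM in nkd1-/- samples, against 8.60, 11.8 and 16.6 CPM in Tu samples. The lowest nkd1-/- sample was well above the highest Tu sample (1.87 ± 0.23, adjusted p = 1.25e-05). A second gene with the symbol prickle1 (ENSDARG00000045694) went the other way, at 58.2, 76.8 and 68.0 CPM in nkd1-/- samples, against 94.1, 92.4 and 88.1 CPM in Tu samples (-0.44 ± 0.12, adjusted p = 0.0109), and its call was lost in at least 1 fit with a library left out. celsr1b, which encodes a Flamingo-type cadherin of the same system, was at 1.25, 3.49 and 1.76 CPM in nkd1-/- samples, against 0.411, 0.643 and 0.761 CPM in Tu samples (1.83 ± 0.41, adjusted p = 0.00293). The axin2-/-;nkd1-/- samples, at 0.244, 0.138 and 0.222 CPM, lay below every Tu sample. So did the axin2-/- samples, at 0.0385, 0.0828 and 0.0432 CPM. vangl2 (0.04 ± 0.10), a central component of the branch, was not called. The number called higher in this list was 6 without Tu replicate 1 and 6 without nkd1-/- replicate 2, against 8 with all libraries.

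**Figure D2:**
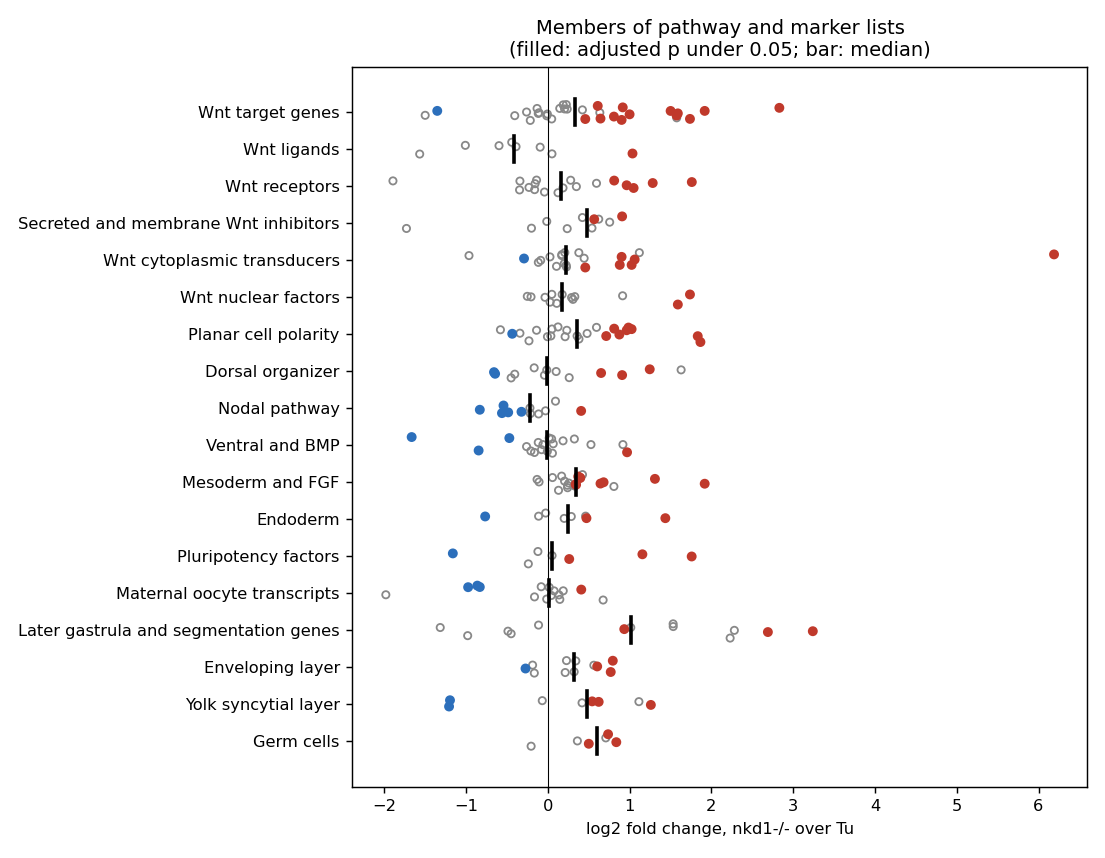
Log2 fold change of nkd1-/- over Tu for every tested member of 18 gene lists, one list a row. Filled points were called at an adjusted p below 0.05, open points were not, and each vertical bar is the list's median. Wnt targets have 13 filled points to the right of 0 and 1 to the left, whereas the Nodal pathway has 5 to the left and 1 to the right.

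The other lists of genes that pattern the embryo had members that moved in both directions, and they share some members with the Wnt lists. The dorsal organizer is the signalling centre that forms the axis. Of 13 tested genes of its list, 3 were called higher and 2 lower, a share of 38.5%, above the background. The 3 called higher include frzb, given above among the inhibitors. foxa2, a transcription factor of axial mesendoderm, was at 13.1, 20.7 and 16.4 CPM in nkd1-/- samples, against 7.18, 6.29 and 7.69 CPM in Tu samples. The groups were separate (1.25 ± 0.17, adjusted p = 4.95e-05), and TL at 6.79, 7.59 and 7.204 CPM lay with Tu. lhx1a, a homeobox gene of the organizer, was at 132, 144 and 144 CPM in nkd1-/- samples, against 80.0, 94.3 and 93.5 CPM in Tu samples (0.65 ± 0.11, adjusted p = 0.000254). admp, a BMP-type ligand made by the organizer, was lower, at 20.9, 24.1 and 26.8 CPM in nkd1-/- samples, against 35.7, 33.8 and 43.7 CPM in Tu samples (-0.66 ± 0.15, adjusted p = 0.00362). noto, a notochord homeobox gene named here after its value was seen, was also lower, at 42.8, 39.8 and 44.4 CPM in nkd1-/- samples, against 63.2, 66.2 and 69.1 CPM in Tu samples (-0.64 ± 0.10, adjusted p = 0.000193). The groups did not overlap for any of these 4 genes. The organizer genes chrd (-0.04 ± 0.13, adjusted p = 0.839) and gsc (0.10 ± 0.11, adjusted p = 0.506) were not called.

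Of 11 tested genes of the Nodal pathway, which induces mesoderm and endoderm, 5 were called lower and 1 higher, with a median of -0.22. The share called was 54.5%, above the background. gdf3, a TGF-beta family ligand supplied maternally and required for Nodal signalling, was at 158, 115 and 157 CPM in nkd1-/- samples, against 261, 239.6 and 264 CPM in Tu samples. The groups did not overlap (-0.83 ± 0.14, adjusted p = 0.000256), and TL was lower still at 99.5, 100.4 and 115 CPM. tdgf1, the Nodal co-receptor, was at 272, 243 and 258 CPM in nkd1-/- samples, against 371, 368 and 386 CPM in Tu samples (-0.54 ± 0.08, adjusted p = 0.000133). A gene for the receptor acvr1b (ENSDARG00000052142) was at 46.3, 38.4 and 48.5 CPM in nkd1-/- samples, against 64.9, 60.8 and 60.6 CPM in Tu samples (-0.48 ± 0.12, adjusted p = 0.00442). These 3 genes kept their calls in every fit with a library left out, whereas lft1 (0.41 ± 0.14), lft2 (-0.56 ± 0.19) and foxh1 (-0.32 ± 0.10) did not, and the ligands ndr1 (-0.21 ± 0.18) and ndr2 (-0.22 ± 0.14) were not called at all. In a fit of only the nkd1-/- and Tu samples, 3 genes of this list were called lower and none higher.

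Among 19 tested genes of the ventral and BMP list, 3 were called lower and 1 higher, a share of 21.1%, below the background. szl, a secreted ventral feedback inhibitor of the BMP system, was at 32.0, 42.9 and 20.3 CPM in nkd1-/- samples, against 88.8, 76.9 and 136 CPM in Tu samples. All mutant samples lay below all Tu samples (-1.66 ± 0.26, adjusted p = 0.000144). bmp7a, a BMP ligand, was at 231, 276 and 252 CPM in nkd1-/- samples, against 343, 388 and 320.2 CPM in Tu samples (-0.47 ± 0.11, adjusted p = 0.00434). klf2a was at 8.49, 5.88 and 6.79 CPM in nkd1-/- samples, against 13.2, 12.004 and 12.9 CPM in Tu samples (-0.85 ± 0.19, adjusted p = 0.00284). TL was above Tu for both, at 33.1, 34.1 and 28.7 CPM for klf2a and 398, 448 and 394 CPM for bmp7a, so for these genes the mutant was the lowest of the groups. bmp4 (-0.06 ± 0.14) was not called.

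The mesoderm and FGF list had 9 of 21 tested genes called higher and none lower, with a median of 0.34. Its share called, 42.9%, was above the background. The 9 include msgn1 and tbxta, already given above among the Wnt targets. mespab, a transcription factor of paraxial mesoderm, was at 56.8, 90.8 and 68.6 CPM in nkd1-/- samples, against 21.98, 28.3 and 36.9 CPM in Tu samples. The groups were separate (1.31 ± 0.22, adjusted p = 0.000249), and TL at 20.8, 33.8 and 25.1 CPM lay with Tu. The number called was 5 without Tu replicate 1 and 6 without nkd1-/- replicate 2 or replicate 3, with osr1, snai1a, snai1b and il17rd among the calls that were not kept in every such fit. Among 8 tested endoderm genes, sox17, an endoderm transcription factor, was at 5.09, 11.9 and 9.63 CPM in nkd1-/- samples, against 2.22, 3.52 and 4.08 CPM in Tu samples (1.44 ± 0.30, adjusted p = 0.0017). The list named cxcr4a, a chemokine receptor, which was matched without its last letter to both genes with the symbol cxcr4. These moved apart, with 0.47 ± 0.11 for ENSDARG00000041959 and -0.77 ± 0.13 for ENSDARG00000057633. The symbols do not show which of them is cxcr4a, so 1 of these calls in the endoderm counts is of a gene not on the list. With that gene, the share of endoderm genes called was 37.5%, against 29.3% of all tested genes. The number of endoderm genes called higher was 2 with all libraries and 4 without nkd1-/- replicate 1 or without Tu replicate 3.

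Of 7 tested pluripotency factors, 3 were called higher and 1 lower, a share of 57.1%, above the background. The same numbers were called in each fit with a library left out. sox2, a SoxB1 factor of the early ectoderm, was at 81.7, 171 and 126 CPM in nkd1-/- samples, against 20.3, 31.0 and 60.7 CPM in Tu samples. Samples of both groups were uneven, and the lowest mutant sample was above the highest Tu sample (1.76 ± 0.34, adjusted p = 0.000873). sox19b, the maternally supplied SoxB1 gene, was at 30.9, 43.8 and 30.8 CPM in nkd1-/- samples, against 18.7, 14.6 and 14.1 CPM in Tu samples (1.16 ± 0.16, adjusted p = 3.71e-05). nanog, which with these factors activates the zygotic genome and whose transcript declines as gastrulation goes on, was at 273, 122 and 191 CPM in nkd1-/- samples, against 509, 463 and 337 CPM in Tu samples. Its groups did not overlap (-1.16 ± 0.21, adjusted p = 0.00053), and TL was at 464, 425 and 498 CPM.

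Marker lists of stage and of other cell types are given beside these genes, and their part in the results was not tested. The list of genes that come on later in gastrulation and segmentation had 3 of 13 tested genes called higher and a median of 1.01, with summed levels of 89.0 to 154 CPM in nkd1-/- samples, against 94.1 to 109 CPM in Tu samples. Those summed ranges overlapped, and the share called was below the background. The number called higher in this list of later genes was 5 without Tu replicate 3. In a fit of only the nkd1-/- and Tu samples it was 2, and the median was 0.43. The calls kept in every fit with a library left out were those on shh and myf5. shh (ENSDARG00000068567), a midline signal, was at 0.132, 0.826 and 0.815 CPM in nkd1-/- samples, against 0.0411, 0.0567 and 0.0845 CPM in Tu samples (3.24 ± 0.77). myf5, a muscle determination factor, was at 0.321, 1.24 and 0.335 CPM in nkd1-/- samples, against 0.0616, 0.0567 and 0.169 CPM in Tu samples (2.69 ± 0.65). Both were low in every library, with no overlap of the groups. Among the genes described above, nkd1-/- replicate 2 was the highest mutant library for most that rose, msgn1, sox2 and sp5l included. Another mutant library was highest for tnfrsf19, tcf7, cby1 and dact2. For nanog, nkd1-/- replicate 2 was the lowest mutant library. Tu replicate 3 was the highest Tu library for msgn1, sox2 and sp5l and the lowest for nanog. Maternal oocyte transcripts had 1 of 15 tested genes called higher and 3 lower, also below the background, and their summed levels overlapped, at 665 to 949.7 CPM in nkd1-/- samples and 796 to 934 CPM in Tu samples. The 3 that fell and kept their call were gdf3, gdf9 (-0.97 ± 0.24) and zp3b (-0.86 ± 0.14), transcripts of the growing oocyte.

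The enveloping layer, the epithelium that covers the embryo, had 3 of 11 tested markers called higher and 1 lower. The share called was 36.4%, against 29.3% of all tested genes. Summed levels were 10821 to 15756 CPM in nkd1-/- samples and 9694 to 11613 CPM in Tu samples, ranges that overlapped. cyt1, a keratin of that layer, was at 397, 637 and 439.7 CPM in nkd1-/- samples, against 265, 256 and 328 CPM in Tu samples (0.79 ± 0.16). The marker called lower was grhl3 (-0.27, adjusted p = 0.0317). The number of enveloping layer markers called higher ran between 2, without nkd1-/- replicate 2, and 6, without nkd1-/- replicate 1, and none was called lower in any of those fits. The yolk syncytial layer, the nucleated yolk surface beneath the cells, had 3 of 8 tested markers called higher and 2 lower. The share called, 62.5%, was above the background. Its summed levels also overlapped, at 3358 to 5407 CPM in nkd1-/- samples and 2680 to 3728 CPM in Tu samples. mxtx2, the homeobox gene that specifies that layer, was lower, at 22.5, 19.4 and 19.1 CPM in nkd1-/- samples, against 47.2, 50.3 and 42.3 CPM in Tu samples. TL at 51.6, 56.1 and 54.3 CPM lay above both, and the groups did not overlap (-1.20 ± 0.17, adjusted p = 6.37e-05). hnf4a, another gene of that layer, was higher (0.54 ± 0.13), so its markers did not move together. The number called higher was 5 without Tu replicate 3. It was 2 without nkd1-/- replicate 2, without Tu replicate 1 and without Tu replicate 2, and also in a fit of only the nkd1-/- and Tu samples.

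Germ cell markers had 3 of 6 tested genes called higher, a share of 50%, above the background. Their summed levels were 526 to 583 CPM in nkd1-/- samples, against 382 to 459.6 CPM in Tu samples. tdrd7a, a germ granule gene, was at 52.3, 51.7 and 47.2 CPM in nkd1-/- samples, against 26.1, 27.1 and 31.4 CPM in Tu samples (0.84 ± 0.12, adjusted p = 9.21e-05). All markers of the enveloping layer, the yolk syncytial layer and the germ cells had counts in both groups. Blood and vessel markers summed to 1.77 to 2.97 CPM in nkd1-/- samples, against 1.08 to 1.50 CPM in Tu samples, and gata1a and spi1 did not pass the filter on low counts. Of the 3 tested, lmo2 was called higher but not in every fit with a library left out.

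The summed level of mitochondrial genome transcripts was higher in the mutant libraries, though most of the 13 genes were not called. The 13 genes summed to 23270 to 27138 CPM in nkd1-/- samples, against 15735 to 20388 CPM in Tu samples. Of the 13, 4 were called higher and none lower, a share close to the background, with a median of 0.03. mt-co1, a cytochrome oxidase subunit, was at 11041, 10306 and 11199.9 CPM in nkd1-/- samples, against 5159.9, 5811 and 6499 CPM in Tu samples. The groups did not overlap (0.90 ± 0.13, adjusted p = 5.24e-05), and TL at 7129.6, 5959.9 and 6678 CPM overlapped Tu only. mt-cyb (0.68 ± 0.15), mt-co2 (0.65 ± 0.14) and mt-co3 (0.53 ± 0.16) were also called, and mt-co3 lost its call in at least 1 fit with a library left out. Without nkd1-/- replicate 2, 3 genes of this list were called higher and 3 lower, and the median was -0.17. Of 10 tested genes of the p53 response, 2 were called higher, mdm2 (0.44 ± 0.14) and rps27l (0.75 ± 0.22), and neither kept its call in every such fit. Of 10 heat shock and ER stress genes, hspb1, a small heat shock protein, was higher at 2341, 3103 and 2441 CPM in nkd1-/- samples, against 1373, 1500.0 and 1864 CPM in Tu samples (0.74 ± 0.14, adjusted p = 0.00091). xbp1, a factor of the unfolded protein response, was also called higher (0.44 ± 0.12), and 4 genes of that list were without nkd1-/- replicate 2 or replicate 3. hspa8 (ENSDARG00000068992), a constitutive chaperone, was lower, at 4555, 4771 and 4141 CPM in nkd1-/- samples, against 5516, 5202 and 6171 CPM in Tu samples (-0.33 ± 0.08, adjusted p = 0.00502).

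Calls were made at every level of expression, and the size of a called change fell as level went up. Genes were placed by their mean CPM over the 6 samples. Of 6942 tested genes under 1 CPM, 1388 (19.99%) were called, with a median absolute log2 fold change of 2.42. Of 6647 genes from 1 to 10 CPM, 2130 (32.0%) were called, with a median of 1.19. The next class, from 10 to 100 CPM, had 2170 of 5941 genes called (36.5%) and a median of 0.67. The top class, of 100 CPM or more, had 636 of 2084 genes called (30.5%) and a median of 0.46. The median SE of a called gene ran from 0.63 in the lowest class to 0.11 in the highest, so in the lowest class only large changes could pass the test at this depth.

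The split by direction differed between levels. The share of called genes that were higher in nkd1-/- embryos was 57.1% under 1 CPM, 52.0% from 1 to 10 CPM, 44.6% from 10 to 100 CPM and 40.1% at 100 CPM or more. No test of this trend was made, since the level is a mean of the same samples. Among the most abundant called genes of the naming rule, mt-co1 and hspa8 were given above. eef2b, a translation elongation factor, was at 2962, 3628 and 3289.6 CPM in nkd1-/- samples, against 2555, 2516 and 2634 CPM in Tu samples (0.36 ± 0.09, adjusted p = 0.00863). The remaining abundant genes of the naming rule were hmga1a (0.32 ± 0.10) and anp32e (0.31 ± 0.11), both higher, and ddx5 (-0.25 ± 0.07), rbm4.3 (-0.30 ± 0.08) and rrm2 (-0.29 ± 0.08), all lower. None of these 5 kept its call in every fit with a library left out.

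By size, 916 called genes changed by less than 0.5 on the log2 scale, 2137 by 0.5 to 1, 1789 by 1 to 2, 1084 by 2 to 4 and 398 by 4 or more. The median mean level of these classes was 73.6, 16.7, 2.79, 0.688 and 0.470 CPM, so the largest changes were found at low levels. Genes past an absolute log2 fold change of 1 numbered 3271, or 15.1% of those tested, with 1376 of them under 1 CPM and 45 at 100 CPM or more. Among changes under 0.5, 360 were higher and 556 lower in nkd1-/- embryos, whereas among changes of 4 or more, 224 were higher and 174 lower. The median absolute change was 1.13 for genes that rose and 0.95 for genes that fell. Of 15290 genes that were not called, 8240 (53.9%) had a 95% interval of the log2 fold change that lay within 1 of no difference, and 3422 (22.4%) had one within 0.5. For the remaining uncalled genes, larger differences are within the error.

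**Figure D3:**
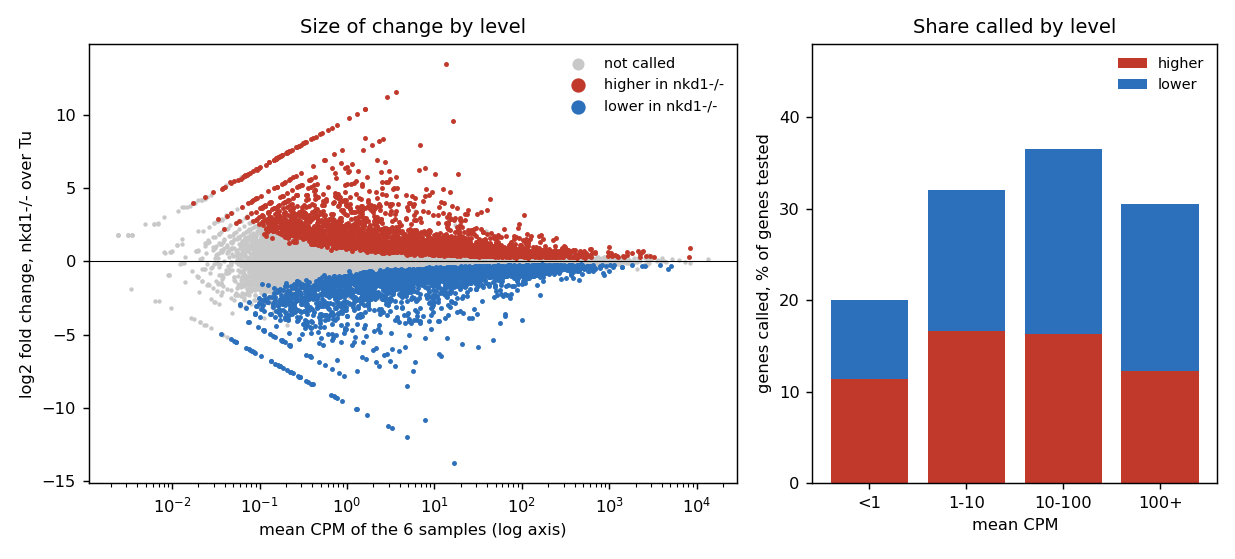
Left, log2 fold change of nkd1-/- over Tu against the mean level in CPM (log axis) for each tested gene, with called genes coloured by direction. Right, the share of tested genes called higher or lower in each class of mean level. Called genes reach past 4 on the log2 scale mainly at low level, and the share called is 19.99% under 1 CPM and 36.5% from 10 to 100 CPM.

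Replicates agreed in direction for most calls. Of the 6324 called genes, 5889 (93.1%) had all 3 nkd1-/- samples on one side of all 3 Tu samples, which is 27.2% of tested genes. The calls rest on these same samples, so the separation is not separate support for them. Separation of the replicates without regard to p was found in 8841 genes, or 40.9% of those tested, and 2952 of them were not called, with a median absolute log2 fold change of 0.55. The 435 called genes that overlapped had a median absolute change of 0.77, against 1.07 for those that did not. Separation was a little more frequent among large changes, at 97.0% for changes of 4 or more and 91.3% for changes under 0.5. In 29 called genes the overlap went away on leaving out Tu replicate 3 and stayed on leaving out any other single library. Such genes numbered 18 for nkd1-/- replicate 1, 15 for nkd1-/- replicate 2 and 3 or fewer for each remaining library. Genes whose overlap could be removed by more than 1 library are not in these counts.

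Leaving out 1 library at a time was a stricter measure. Of the 6324 called genes, 3637 (57.5%) were called with the same sign in all 6 such fits. The number called with the same sign was lowest without Tu replicate 1 (4452) and without nkd1-/- replicate 2 (4519), and highest without nkd1-/- replicate 1 (5381). The share kept in all 6 fits depended on size, with 23.4% of changes under 0.5, 52.7% of those from 0.5 to 1, 65.4% of those from 1 to 2, 70.6% of those from 2 to 4 and 91.0% of those of 4 or more. Calls on small changes were thus lost most often, in fits that also had fewer samples.

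Among genes averaging 1 CPM or more, the largest changes were close to presence in one group and absence from the other. smyhc2, a slow muscle myosin heavy chain of the somites, was at 26.9, 33.4 and 36.6 CPM in nkd1-/- samples, from 1428, 1618 and 2518 counts, against 0.0821, 0.0189 and 0.0211 CPM in Tu samples, from 4, 1 and 1 counts. Each mutant library held far more than any Tu library (9.56 ± 0.51, adjusted p = 1.88e-09), and TL at 0.0351, 0.0757 and 0.157 CPM was as low as Tu. The axin2-/-;nkd1-/- samples were also high for smyhc2, at 10.3, 21.2 and 12.1 CPM. Its neighbour and near-identical relative smyhc1 was at 4.36, 5.59 and 5.67 CPM in nkd1-/- samples, against 0, 0 and 0.0423 CPM in Tu samples. The myosin genes of this cluster are so alike that the authors' counting could have split reads between them, and the values of single members are uncertain. mchr1 (ENSDARG00000022525), which encodes a receptor for melanin-concentrating hormone, was at 4.64, 5.04 and 4.22 CPM in nkd1-/- samples, against 0.0411, 0 and 0 CPM in Tu samples. For this gene TL was as high as the mutant, at 4.99, 7.19 and 2.57 CPM.

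The falls of the same kind included cyp2aa1 and matcap1. cyp2aa1, a cytochrome P450 enzyme, was at 0.0189, 0.124 and 0.0436 CPM in nkd1-/- samples, against 10.6, 11.2 and 11.9 CPM in Tu samples. It was close to absent from the mutant (-7.51 ± 0.58, adjusted p = 8.56e-08) and also from TL, at 0.0527, 0.0189 and 0.0699 CPM. matcap1, which in mammals encodes a peptidase that trims the tail of alpha-tubulin, was at 0.0377, 0.0413 and 0.0145 CPM in nkd1-/- samples, against 5.34, 4.59 and 3.82 CPM in Tu samples. The difference was -7.16 ± 0.47 (adjusted p = 1.22e-08), and TL lay between the groups at 1.28, 0.871 and 1.08 CPM. Most of the remaining genes among the 10 largest rises and 10 largest falls carried clone-type names.

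**Figure D4:**
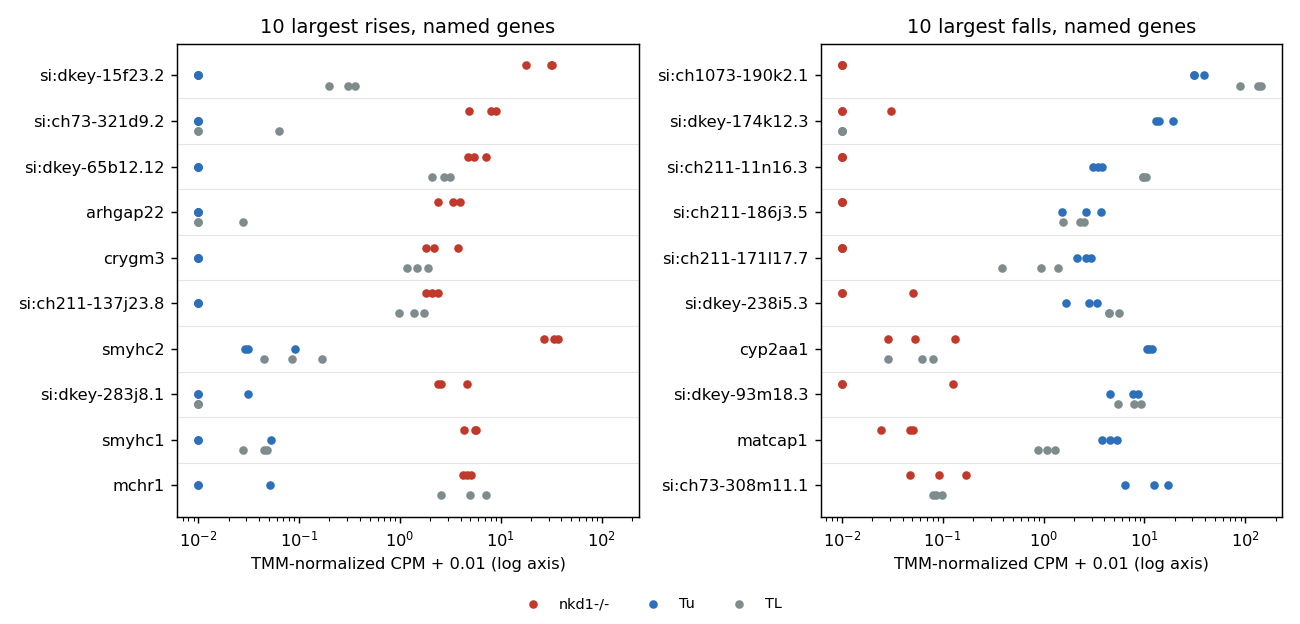
Level in CPM plus 0.01 (log axis) of the 10 named genes with the largest rises and the 10 with the largest falls among called genes averaging 1 CPM or more over the 6 samples whose replicates do not overlap. Points are samples of nkd1-/-, Tu and TL. Rises have Tu at or near 0, falls have nkd1-/- at or near 0, and TL is near nkd1-/- for some genes, near Tu for others and between them for matcap1.

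A gene was taken as on in a group when each of its 3 libraries held at least 10 counts, and as off when the 3 libraries held at most 3 counts in all. By that rule 101 genes, or 0.467% of those tested, were on in nkd1-/- and off in Tu, and 56 genes, or 0.259%, were on in Tu and off in nkd1-/-. All of them were called, but the rule itself asks for a large difference, so the calls are not separate support. The rule uses raw counts, and the libraries differed in depth. With counts thinned to the smallest library, 94 genes were on in nkd1-/- and off in Tu, and 63 were on in Tu and off in nkd1-/-. The numbers for the directions thus lay closer together at equal depth. With fewer libraries to meet the rule, the number on in nkd1-/- was 157 without Tu replicate 2 and 153 without Tu replicate 3. The number on in Tu was 89 without nkd1-/- replicate 1 and 106 without nkd1-/- replicate 3. With all libraries, 42 of the 101 and 29 of the 56 had no count at all in the group where they were off. Their levels were low, with a median over genes of 0.529 CPM in nkd1-/- for those on in the mutant and 0.680 CPM in Tu for those on in Tu, and 25 of the 101 and 18 of the 56 were above 1 CPM where they were on. Clone-type names or no name were carried by 58.4% of the 101 genes and 58.9% of the 56, against 24.5% of all tested genes and 23.2% of called genes. Those comparison sets cover all levels and were not matched to the low levels of the on/off genes.

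The strongest genes on in nkd1-/- were led by si:dkey-15f23.2, at 32.2, 17.9 and 31.8 CPM in nkd1-/- samples and with no count in the Tu samples. Against a floor of 3 counts over the 3 Tu libraries it was at least 1387-fold higher in nkd1-/- embryos, and TL held a trace of 0.298, 0.189 and 0.350 CPM. si:ch73-321d9.2 was at 8.96, 4.83 and 8.07 CPM in nkd1-/- samples and had no count in Tu, which is at least 369-fold higher on the same floor. si:dkey-65b12.12 was at 5.42, 4.73 and 7.202 CPM in nkd1-/- samples and had no count in Tu, at least 295-fold higher, but TL carried it at 3.16, 2.06 and 2.71 CPM. A named gene with the same pattern in nkd1-/-, Tu and TL was crygm3, a lens crystallin. It was at 1.79, 3.78 and 2.18 CPM in nkd1-/- samples and had no count in Tu, at least 125-fold higher. Its TL samples were at 1.46, 1.89 and 1.15 CPM. In axin2-/-;nkd1-/- samples crygm3 was off, whereas si:dkey-65b12.12 was on. smyhc1 also met the rule, with 2 counts over the Tu libraries and a ratio of 390 (95% counting interval 108 to 3229).

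In the other direction, si:ch1073-190k2.1 had no count in nkd1-/- samples, against 31.2, 31.0 and 39.2 CPM in Tu samples, and was at least 1909-fold lower in nkd1-/- embryos on a floor of 3 counts over the 3 mutant libraries. TL held still more of it, at 88.6, 145 and 134 CPM. si:dkey-174k12.3 had 1 count over the nkd1-/- libraries, against 13.1, 14.1 and 19.1 CPM in Tu samples, a Tu over nkd1-/- ratio of 2612 with a 95% counting interval of 468 to 103197. It had no count in TL, so among these 3 groups it was a Tu transcript alone. si:ch211-11n16.3 had no count in nkd1-/- samples, against 3.78, 3.42 and 3.08 CPM in Tu samples, at least 195-fold lower, with TL at 9.66, 10.3 and 9.69 CPM. Intervals and floors cover counting error only.

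TL samples often carried on/off genes. Of the 101 genes on in nkd1-/- and off in Tu, 27 were on in TL, 23 were off in TL and 51 were in between. Of the 56 genes on in Tu and off in nkd1-/-, 27 were on in TL, 7 were off and 22 were in between. In the axin2-/-;nkd1-/- samples, which descend from both mutant lines, 48 of the 101 were on and 4 off, whereas 7 of the 56 were on and 27 off. In axin2-/- samples, with no nkd1 lesion in their label, 30 of the 101 were on and 23 off, and 20 of the 56 were on and 8 off.

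Across all called genes, TL lay with Tu in some and with the mutant in nearly as many. The range of the 3 TL samples overlapped the range of the Tu samples only in 2085 of 6324 called genes (33.0%) and that of the nkd1-/- samples only in 1851 (29.3%). It overlapped both in 512 (8.10%) and neither in 1876 (29.7%). The number overlapping both was 231, 269 and 290 without TL replicate 1, 2 and 3 in turn. A range over fewer TL samples overlaps less by construction, and the calls were refitted in each of those runs. Over all tested genes the shares were 20.1% for Tu only, 18.7% for nkd1-/- only, 32.8% for both and 28.5% for neither. Among the 1876 called genes in which TL overlapped neither group, TL lay between the groups in 791, beyond nkd1-/- in 480 and beyond Tu in 605.

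The shares differed little by direction and somewhat more by level, where the nkd1-/- only share fell from the lowest class to the highest. Called genes without overlap of nkd1-/- and Tu numbered 2852 higher in nkd1-/- (13.2% of tested) and 3037 lower (14.1%). Among these, TL overlapped Tu only in 34.9% of those higher in nkd1-/- and 32.2% of those lower. TL overlapped nkd1-/- only in 28.8% of those higher in nkd1-/- and 29.9% of those lower. From the lowest to the highest class of level, TL overlapped Tu only in 35.1%, 31.0%, 33.7% and 37.3% of such genes, and nkd1-/- only in 32.1%, 29.6%, 28.3% and 26.2%. The comparison of TL with Tu called 6712 genes (31.1% of those tested), and that of TL with nkd1-/- called 7623 (35.3%). These 2 comparisons share samples with the comparison of nkd1-/- with Tu and with each other, so they are given side by side and not as independent results.

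For some of the genes described above the TL comparisons differed. tnfrsf19 was called both in TL against Tu (adjusted p = 0.00058) and in TL against nkd1-/- (adjusted p = 8.09e-06), with a log2 fold change of 1.15 over Tu and -1.68 over nkd1-/-. lef1 was not called in TL against Tu (adjusted p = 0.473) and was called in TL against nkd1-/- (adjusted p = 0.000109). tcf7 was called in TL against Tu (adjusted p = 0.000994) and was not in TL against nkd1-/- (adjusted p = 0.774). Among the 14 called Wnt targets, TL overlapped Tu only in 7, nkd1-/- only in 3 and neither in 4.

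The genes in which the mutant stood apart from both strains were counted next. All 3 nkd1-/- samples lay outside the joint range of the 6 Tu and TL samples in 4459 tested genes (20.6%) without regard to p and in 3319 called genes (15.4% of tested, 52.5% of called). Of the 3319, 1584 were higher and 1735 lower in nkd1-/- embryos, with a median absolute log2 fold change of 1.104. A call in TL against nkd1-/- was also made in 2718 of them, 1293 higher and 1425 lower in nkd1-/- embryos. nkd1, axin2, lef1, msgn1, tnfrsf19, sp5l, sp5 and wnt5b were among the genes of this kind, and tcf7 and ror2 were not. Standing apart was not particular to the mutant, since Tu also lay outside the nkd1-/- and TL samples in many called genes. Among called genes without overlap, these were 1729 in which TL overlapped nkd1-/- only and 455 in which TL lay beyond nkd1-/-. The 791 with TL between the groups belong to both kinds.

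**Figure D5:**
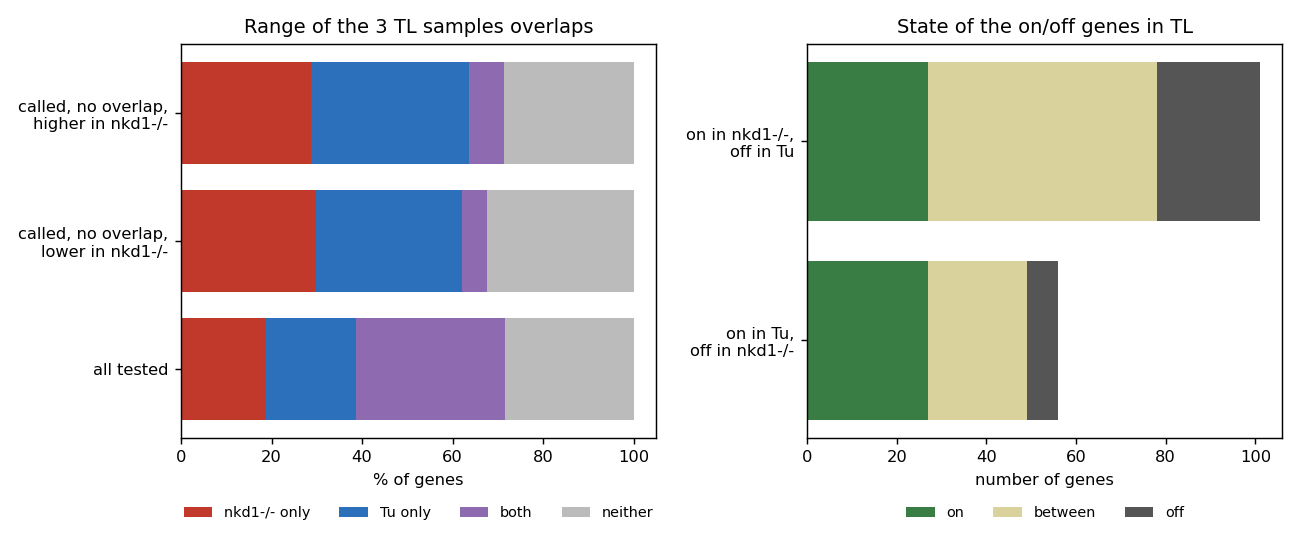
Left, the share of genes in which the range of the 3 TL samples overlaps that of nkd1-/- only, of Tu only, of both or of neither, for called genes without overlap that were higher or lower in nkd1-/- and for all tested genes. Right, the number of on/off genes that were on, in between or off in TL. TL overlaps Tu only in 34.9% of genes higher in nkd1-/- and nkd1-/- only in 28.8%.

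Near the targeted gene, calls were about as frequent as over all placed genes once 25 or more genes a side were taken. By gene order in a RefSeq table of another assembly, 13696 tested genes could be placed, of which 4089 (29.9%) were called. Among the 10 placed genes on each side of nkd1, 8 of 20 were called. Among the 25 on each side, 15 of 50 were called, and among the 50 on each side, 31 of 100. Across 124 windows of 100 genes the share called ran from 10% to 53% with a median of 30%, and it was 20.7% to 39.8% across 25 chromosomes. By kind of gene in that table, 4040 of 13500 protein-coding genes (29.9%) and 37 of 158 long non-coding RNA genes (23.4%) were called.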

How the data were processed

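RNA-seq counts of 15 samples were analysed as deposited. Per the labels' protocols, RNA of 10 embryos a sample was extracted (GENEzol) before library preparation (NEBNext Ultra II). Per the submitters' processing notes, the build was GRCz11 and edgeR 3.30.3 was used, in a role that is not stated. The aligner, counter, gene annotation and use of strand are not given in the sources used here, so reads of antisense or near-identical genes may be shared. The values are raw counts per gene, which the authors deposited in 1 table with no normalization.

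Counts were fitted in edgeR 4.0.16 (R 4.3.3) with a quasi-likelihood model over all 15 samples, 1 coefficient a group, TMM scaling and the default filter on low counts (minimum count 10, minimum total 15), which left 21614 genes and 10 residual degrees of freedom. The groups share 1 estimate of spread. P-values were adjusted by the Benjamini-Hochberg method over all tested genes, and the call was made at 0.05. The fit was tested on simulated counts. Alternatives were DESeq2 1.42.0, DESeq2 size factors, no filter, only the groups compared, a replicate block, a least absolute log2 fold change of 1, libraries thinned to 44098543 counts, and each replicate left out.

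Symbols were matched for 29201 of 32520 gene IDs, and 1806 symbols belonged to more than 1 ID, so the ID is printed for those. List symbols with no match were also tried without their last letter. Gene order and kind came from a RefSeq table of assembly GRCz12tu, from which no position is given. The members and gene lists were chosen with earlier results of these data known. Named genes were nkd1, axin2 and the Naked family; up to 4 called members a list without overlap of replicates, by size; the 10 largest rises and falls averaging 1 CPM or more; the 3 strongest on/off genes, the 4 most abundant called genes and the 3 largest changes outside the Tu and TL range in each direction, with unnamed IDs passed over. Other genes, those not called included, were named after their values were seen. The replicate numbers are not stated to pair samples across groups, and the main fit did not pair them.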

Additional observations from a re-analysis of the deposited data

How the results depend on the processing

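None of the 93 genes of the naming rule that were refitted reversed direction under any alternative run, and other genes in the text were not followed through them. Over the fits that left out 1 nkd1-/- or Tu library, 514 results of the 93 genes stayed on their side of the threshold, 43 lost the call and 1 gained it. Asking also for an absolute log2 fold change of 1 or more left 3271 genes (1749 higher and 1522 lower in nkd1-/- embryos), 3127 of them without overlap of the replicates. The place of TL among those was nkd1-/- only in 958 genes, Tu only in 1077, both in 217 and neither in 1019. By the nearest group in mean log2(CPM + 0.5), TL was nearer to nkd1-/- in 2926 called genes and to Tu in 3398. With off taken as no count at all, 42 genes were on in nkd1-/- and 29 on in Tu, and with on taken as at least 50 counts in every library, 20 and 14 were. Leaving out 1 library gave 4584 to 6132 calls, 2212 to 3044 higher and 2372 to 3088 lower in nkd1-/- embryos, and 4523 to 6048 without overlap. It gave 109 to 157 genes on in nkd1-/- and 65 to 106 on in Tu. Fewer libraries had to be on or off in those fits by construction. Without 1 TL library, TL overlapped nkd1-/- only in 1636 to 1698 genes, Tu only in 1820 to 1891, both in 231 to 290 and neither in 2157 to 2570. The TL range also covered fewer samples there, which lowers overlap by construction, and the calls were refitted.

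DESeq2 called 7016 genes, 6282 of them shared with the edgeR calls, and the fit of only the groups compared called 5048, 4797 of them shared. The fit with the replicate block called 6479 genes, 6126 of them shared. The block is a check only, since the replicate numbers are not stated to pair samples across groups. Deviations of nkd1-/- and Tu samples with the same number correlated at 0.112, 0.013 and -0.028. Depth limits the result under 1 CPM, where the median SE of a tested gene was 0.62.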
